A study of Mus musculus with 7 samples.

Results

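Fully grown oocytes carry a store of maternal mRNA, and the genes described here encode proteins that package, repress and protect that store. The set holds 9 genes, Zar1, Zar1l, Ybx1, Ybx2, Ybx3, Lsm14a, Lsm14b, Igf2bp2 and Igf2bp3, chosen by symbol for their known role. Each is listed once among the 25912 entries of the expression tables, and all 9 passed the filter on low values.

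The transcript levels come from 7 Smart-seq2 libraries, each a pool of 10 mouse oocytes. GV oocytes, still arrested with an intact germinal vesicle, gave 2 libraries whose labels list genotype Control and treatment NO, although the methods of the study name DMSO for GV controls too. MII oocytes with genotype Control and treatment DMSO, the solvent, gave 3 libraries. MII oocytes with genotype Treat and treatment BYBX gave 2 libraries, and BYBX is a small-molecule ligand that stabilizes RNA G-quadruplexes (rG4s), structures of stacked G runs. No gene was altered in any group, so these genotype entries stand for the treatment. The study describes C57BL/6 mice, females of 4 weeks primed with PMSG, and 16 h of culture to MII. The labels and the Smart-seq2 methods do not state the dose of BYBX. The comparisons ask how levels change from GV to MII and whether BYBX alters that change. The study reports that fewer oocytes released the first polar body, the mark of MII, as the BYBX dose rose. Treated oocytes that reached MII had abnormal spindles. How oocytes were picked for the BYBX pools is not stated. A delay in stage thus cannot be told apart from other effects of BYBX.

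Levels are in FPKM, fragments scaled for transcript length and for library size, which the authors rescaled to an RNA spike-in. Summed over all entries they reached 402113 to 489569 in GV, 109732 to 127254 in MII with DMSO, and 201482 to 246710 in MII with BYBX. Read depth is unknown, so precision rests on the 2 or 3 libraries a group. Nothing states that libraries of a group came from separate animals, and p-values then measure the spread between these libraries, which may be technical. Reverse transcription from oligo-dT reads polyadenylated RNA, and fewer transcripts cannot be told apart from shorter poly(A) tails. Fewer contributing cells and less RNA per cell cannot be told apart either. All 10 oocyte markers reached at least 1 FPKM in GV and in MII with BYBX, and 9 of them in MII with DMSO, Figla being the exception. Markers of granulosa and cumulus cells moved with the groups too, with 10 genes summing to 8.08 to 15.5 FPKM in GV, 1.64 to 2.23 with DMSO and 3.36 to 3.50 with BYBX. Of these, Cyp19a1, Inha and Nr5a2 reached 1 FPKM in a GV library, 1 gene did so with DMSO and 2 with BYBX. In each group 2 of the 10 were listed at 0 in every library, Ptx3 and Tnfaip6 in GV and with BYBX and Amh and Ptx3 with DMSO, and the part of such cells in the results was not tested. Summed markers of erythrocytes, leukocytes and theca or stroma were at most 1.13, 1.73 and 0.503 FPKM.

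Growing oocytes transcribe far more mRNA than they translate, and the surplus is kept in cytoplasmic ribonucleoprotein particles. Meiotic maturation then proceeds without new transcription, while stored mRNAs are translated in a set order and many are degraded. ZAR1 and ZAR1L bind maternal mRNA through a zinc finger. The Y-box proteins coat mRNA through a cold-shock domain, LSM14 proteins belong to repressive particles with the helicase DDX6, and IGF2BP proteins bind mRNA through KH domains and shield it from decay.

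From GV to MII with DMSO, 7 of the 9 genes fell at an adjusted p under 0.05 by limma and none rose, against 88.3% of all 9202 tested entries that were lower and 0.272% that were higher. The falls reached from 1.71-fold for Ybx1 to 229-fold for Zar1l in mean FPKM, while Lsm14a and Lsm14b did not pass the test. With BYBX against DMSO, 5 of the 9 rose, Zar1, Zar1l, Ybx2, Ybx3 and Igf2bp2, and none fell, against 65.2% of all entries higher and 0.0326% lower. With BYBX against GV, 5 were lower, Zar1, Zar1l, Ybx3, Igf2bp2 and Igf2bp3, and none was higher, against 69.2% of all entries lower and 0.315% higher. These shares lie near those of all entries, so the counts say little that is particular to storage proteins. What separated the genes was the size of the change.

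Median log2 fold changes of the 9 genes were -2.37, 1.15 and -0.89 in the order MII with DMSO minus GV, MII with BYBX minus MII with DMSO, and MII with BYBX minus GV. Over all tested entries the medians were -1.83, 0.84 and -0.99. Here and in what follows a log2 fold change is a difference of log2(FPKM + 1), which understates the change of genes near or below 1 FPKM. Each pair of comparisons shares a group of libraries, so the comparisons are not independent of each other.

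**Figure D1:**
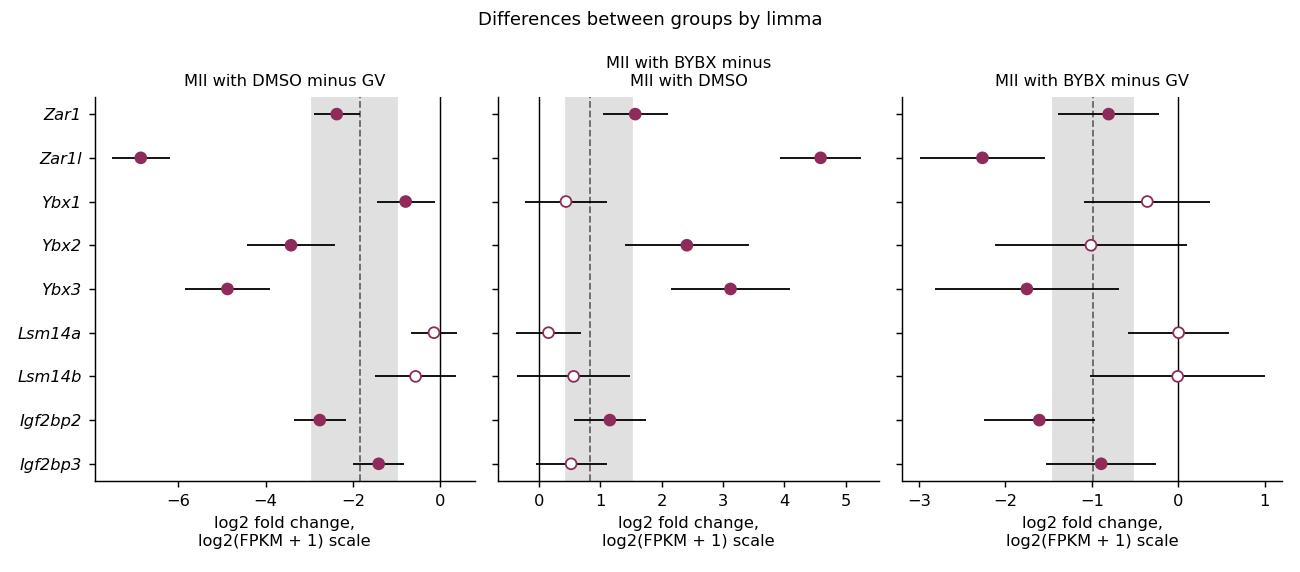
Log2 fold change of each gene in the 3 comparisons, on the log2(FPKM + 1) scale, as points with 95% confidence intervals from limma; filled points have an adjusted p under 0.05. The dashed line is the median and the grey band the interquartile range of all 9202 tested entries. Zar1l stands outside the band in all 3 panels, at -6.86, 4.59 and -2.27, whereas Lsm14a lies near 0 in each.

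The directions depend on how libraries are scaled. With every library set to the same total FPKM, 5 of the 9 genes fell and 3 rose from GV to MII with DMSO, against 49.5% and 23.3% of all entries. After centring each library on its median, 2 fell and 4 rose, against 26.7% and 48.8%. Between the MII groups, 4 genes were higher and 1 lower with BYBX at the same total (39.9% and 8.22% of all entries), and 2 were higher and 3 lower after centring (18.4% and 43.9%). Against GV, 1 gene was lower and 1 higher with BYBX under each scaling, where all entries gave 13.3% lower and 5.3% higher at the same total and 13.6% and 15.2% after centring. The median change of all entries moved under these scalings from -1.83 to -0.56 and 0.47 for MII with DMSO minus GV, from 0.84 to 0.34 and -0.44 between the MII groups, and from -0.99 to -0.17 and 0.04 for MII with BYBX minus GV. Zar1l kept its direction and its call in all 3 comparisons under both scalings. Ybx3 did so in MII with DMSO minus GV and in MII with BYBX minus MII with DMSO. With replicate numbers as a block, the calls of the 9 genes did not change, while 84.5%, 57.2% and 64.8% of all entries were lower, higher and lower in the 3 comparisons and 0.152%, 0.0326% and 0.293% went the other way. The count of 5 for BYBX against GV was the least firm, at 3 with no filter on level (45.1% of entries lower, 0.314% higher) and 3 with a minimum of 2-fold (49.2% and 0.196%).

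Because BYBX acts on rG4s, the transcripts were searched for runs of G. A motif was 4 runs of GGG or more with 1 to 7 bases between them, read on the transcript's own strand only, since rG4s form in the RNA. Among the 9 genes, 4 carried such a motif (Lsm14a, Lsm14b, Igf2bp2 and Igf2bp3), compared with 18.7% of the 8740 protein-coding transcripts matched by symbol. Those of at most 30 bases are printed below as DNA letters, 5′ to 3′ on the transcript strand, with the G runs in capitals, because such runs are what BYBX is meant to bind.
Lsm14a, 5′ UTR, chr7:34389629-34389649, minus strand: GGGcGGGaggctGGGGGaGGG
Igf2bp2, 5′ UTR, chr16:22163049-22163073, minus strand: GGGcgaGGGtGGGGGcGGGGGcGGG
Igf2bp3, coding sequence, chr6:49117302-49117329, minus strand: GGGGGcgccGGGGGccaGGGcagcGGGG
Positions are on GRCm38 (mm10) with GENCODE vM21 transcripts, which need not be the models the authors counted on. Such matches describe letters and not folded structures. The search covers this pattern alone, so a gene without a match is not shown to lack an rG4. Zar1 had no match, yet the study reports an rG4 in its 5′ UTR that BYBX bound and stabilized in vitro. The search therefore misses a gene of the set with a measured rG4.

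Zar1, the founding member of its family and required for the maternal-to-zygotic transition, was the most abundant of the 9 genes in every library. It lies on chromosome 5 from 72576806 to 72581254, on the minus strand. Its level was 1774 and 1420 FPKM in GV, 286, 279 and 358 FPKM in MII with DMSO, and 1070 and 770 FPKM in MII with BYBX. The groups did not overlap, with GV highest, MII with DMSO lowest and MII with BYBX between them. Its mean dropped from 1597 ± 251 FPKM (SD, n = 2) in GV to 308 ± 43.7 FPKM (SD, n = 3) with DMSO, which is 5.19-fold in mean FPKM (log2 fold change -2.37 with a standard error of 0.25, limma adjusted p = 5.7e-07). With BYBX it stood at 920 ± 212 FPKM (SD, n = 2), 2.99 times the level with DMSO (log2 fold change 1.57, standard error 0.25, adjusted p = 8.9e-05). Against GV the log2 fold change was -0.81 (adjusted p = 0.0167). That call was lost with no filter on level (limma adjusted p = 0.0724) and with a minimum of 2-fold. It was also lost without the first GV or the second BYBX library, which leaves 1 in that group (-0.65 and -0.57). At the same total FPKM, Zar1 changed by -0.49 from GV to MII with DMSO and by 0.67 between the MII groups, and both passed the test. After median centring these changes were -0.07 and 0.29, and neither passed the test. BYBX minus GV was positive under these scalings, 0.19 and 0.22, and did not pass.

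Zar1l, the paralogue of Zar1, showed the largest change of the set. The gene spans 150507055 to 150518164 on chromosome 5, minus strand, where the processed pseudogene Gm15933 overlaps it, and reads of the pseudogene could be counted with it. The tables give 211 and 246 FPKM in GV, 0.563, 1.26 and 1.17 FPKM in MII with DMSO, and 65.7 and 32.9 FPKM in MII with BYBX. It was near 1 FPKM in each library with DMSO, and both libraries with BYBX lay far above these and below GV. Group means were 228 ± 25 FPKM (SD, n = 2) in GV and 0.997 ± 0.379 FPKM (SD, n = 3) with DMSO. The log2 fold change was -6.86, its standard error 0.31 and its limma adjusted p 3.9e-10, and 0.25% of all tested entries fell further. Levels with BYBX were 49.4 times those with DMSO (log2 fold change 4.59, standard error 0.31, adjusted p = 7.7e-08), higher than for 99.6% of entries. Against GV, BYBX gave -2.27 on the log2 scale (standard error 0.34, adjusted p = 1.1e-04), with 1.01% of entries below it. At the same total FPKM the 3 changes were -5.42, 4.14 and -1.28, and after median centring -4.55, 3.31 and -1.24. Each of these passed the test.

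**Figure D2:**
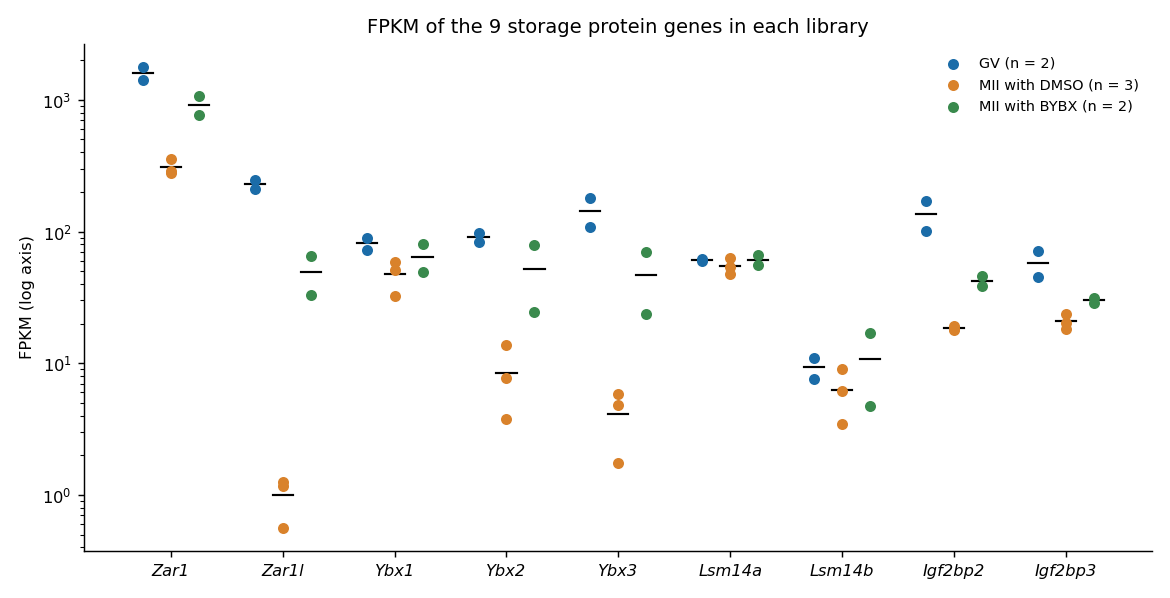
FPKM of the 9 genes on a log axis, 1 point per library and a black line at each group mean, for GV (n = 2), MII with DMSO (n = 3) and MII with BYBX (n = 2). Zar1l drops from 211 or more in GV to 1.26 or less with DMSO, whereas the points of Lsm14a overlap in all groups, between 47.8 and 66.4.

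Ybx2, also known as Msy2, is the germ-cell Y-box protein that packages mRNA in oocytes. It spans 69935796 to 69941605 on chromosome 11, plus strand. Its levels were 82.6 and 98.1 FPKM in GV, 3.79, 7.67 and 13.9 FPKM in MII with DMSO, and 78.8 and 24.6 FPKM in MII with BYBX. No groups overlapped, although the first BYBX library lay close to GV and the second did not. From GV to MII with DMSO Ybx2 fell, at a log2 fold change of -3.42 with standard error 0.47 (limma adjusted p = 1.1e-05). It rose with BYBX against DMSO by 2.41 on the log2 scale (standard error 0.47, adjusted p = 5.6e-04), a difference of 1.61 that passed at the same total FPKM and of 1.13 that did not pass after centring. The fall from GV likewise passed at the same total (-1.65) and not after centring (-1.12, adjusted p = 0.0622). The difference between BYBX and GV, -1.01 (adjusted p = 0.096), did not pass. It did so in a fit of those groups alone (adjusted p = 0.0076), without the first DMSO library (0.0159) and without the first BYBX library (0.0049).

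Ybx3, a widely expressed Y-box protein known as a repressor of translation, spans 131364855 to 131388476 on chromosome 6, minus strand, with the snoRNA Gm22362 within it. It had 108 and 180 FPKM in GV, 1.75, 5.87 and 4.82 FPKM in MII with DMSO, and 69.4 and 23.7 FPKM in MII with BYBX. All 3 groups were separate, in the order GV, BYBX, DMSO. From GV to MII with DMSO it fell 34.7-fold in mean FPKM (log2 fold change -4.87, standard error 0.45, limma adjusted p = 1.8e-07), and 4.34% of entries fell further. With BYBX the level was 11.2 times that with DMSO (log2 fold change 3.12, standard error 0.45, adjusted p = 4.4e-05). The difference of BYBX from GV was -1.75 (adjusted p = 0.0066), and the call was lost without the second GV library (adjusted p = 0.118) or the second BYBX library (0.0901), and under both other scalings (-0.77 and -0.73).

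Ybx1, the Y-box protein of most somatic cells, changed least of the 3. It lies on chromosome 4 from 119277981 to 119294604, minus strand, and 1 pseudogene named after it is annotated elsewhere, so reads could be split between them. Ybx1 had 72.6 and 90.0 FPKM in GV, 32.7, 51.1 and 58.7 FPKM in MII with DMSO, and 80.0 and 49.3 FPKM in MII with BYBX. The GV libraries lay above those with DMSO, and the libraries with BYBX overlapped both groups. From GV to MII with DMSO its log2 fold change was -0.80, with standard error 0.31 (limma adjusted p = 0.026), and 81.1% of entries had a lower value. That call was lost with no filter on level (limma adjusted p = 0.0738), with a minimum of 2-fold, and without the first DMSO library (0.0973). The call was also lost without the first or the second GV library, which leaves 1 in that group, at log2 fold changes of -0.95 and -0.64. The change was positive, 1.06 and 1.51, under the other scalings. BYBX against DMSO gave 0.44 (95% confidence interval -0.23 to 1.10, adjusted p = 0.223), so a rise of a little over 1 on the log2 scale is within the interval.

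Within each library the Y-box genes therefore changed places. Ybx3 held 41.0% to 48.9% of the summed FPKM of the 3 Y-box genes in GV, 4.57% to 9.07% in MII with DMSO and 24.2% to 30.4% in MII with BYBX. Ybx1 held 24.4% to 27.6% in GV, 75.9% to 85.5% with DMSO and 35.0% to 50.5% with BYBX. Such shares do not depend on the scaling factor of a library. The log2 ratio of Ybx1 over Ybx2 was -0.16 ± 0.04 (SD, n = 2) in GV, 2.64 ± 0.52 (SD, n = 3) with DMSO and 0.51 ± 0.69 (SD, n = 2) with BYBX.

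Lsm14a, a scaffold of repressive mRNA particles and P-bodies, spans 34344646 to 34393315 on chromosome 7, minus strand. It overlaps 4 annotated genes, among them the antisense gene Gm12764, and whether counting used strand is not stated. Lsm14a had 59.2 and 62.1 FPKM in GV, 47.8, 54.1 and 63.1 FPKM in MII with DMSO, and 66.4 and 55.7 FPKM in MII with BYBX. All 3 groups overlapped. Its log2 fold change from GV to MII with DMSO was -0.15 (95% confidence interval -0.68 to 0.39, limma adjusted p = 0.575), and 96.9% of entries had a lower value. BYBX against DMSO gave 0.15 (interval -0.38 to 0.69, adjusted p = 0.593) and BYBX against GV 0.00 (interval -0.58 to 0.59, adjusted p = 0.991). A gene that held its FPKM while most others fell took a larger share of its library. At the same total FPKM it rose from GV to MII with DMSO by 1.71 on the log2 scale (adjusted p = 2.4e-05) and lower with BYBX than with DMSO by a log2 fold change of -0.73 (adjusted p = 0.0086). After median centring these values were 2.16 and -1.13. BYBX against GV, flat in the deposited scaling, gave 0.98 (adjusted p = 0.0232) at the same total and 1.03 (adjusted p = 0.0146) after centring, so that it passed the test under both.

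Lsm14b, the LSM14 protein that oocytes need for meiotic maturation, was the lowest of the 9 genes in GV. The gene spans 180024987 to 180035465 on chromosome 2, plus strand. Values were 7.65 and 10.9 FPKM in GV, 3.44, 9.11 and 6.15 FPKM in MII with DMSO, and 16.9 and 4.71 FPKM in MII with BYBX. The BYBX libraries lay far apart, the first above and the second below both GV libraries. The log2 fold change for MII with DMSO minus GV was -0.57 (interval -1.49 to 0.35, limma adjusted p = 0.219). Between the MII groups it was 0.56 (interval -0.36 to 1.49, adjusted p = 0.256), and for BYBX minus GV -0.01 (interval -1.02 to 1.0, adjusted p = 0.990). Without the second BYBX library, which leaves 1 in that group, the rise with BYBX was 1.38, and without the first it was -0.26. At the same total FPKM, MII with DMSO minus GV was 1.08 (limma adjusted p = 0.0478) and after centring 1.73 (0.0063), so that Lsm14b passed as higher under both. Neither scaling gave a call in the other comparisons.

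Igf2bp2, an IGF2BP protein of growing oocytes and early embryos, spans 22059009 to 22163299 on chromosome 16, minus strand. It had 169.7 and 100.1 FPKM in GV, 19.2, 17.9 and 18.1 FPKM in MII with DMSO, and 46.0 and 38.6 FPKM in MII with BYBX. The libraries with DMSO lay close together, below both libraries with BYBX, which in turn lay below GV. Igf2bp2 fell 7.33-fold in mean FPKM (log2 fold change -2.76, standard error 0.27, limma adjusted p = 3.6e-07) and was 2.30 times higher with BYBX than with DMSO (log2 fold change 1.15, standard error 0.27, adjusted p = 0.0023). It was lower with BYBX than in GV by a log2 fold change of -1.61 (standard error 0.30, adjusted p = 4.4e-04). Scaled to the same total FPKM the rise with BYBX was 0.29, after centring it was -0.12, and neither passed the test. BYBX minus GV, at -0.63 (adjusted p = 0.0746) and -0.58 (0.0681), did not pass under these scalings either. The fall from GV to DMSO passed at the same total (-0.92) and not after centring (-0.46, adjusted p = 0.0574).

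Igf2bp3, a paralogue best known from embryonic tissue, spans 49085223 to 49214957 on chromosome 6, minus strand. It overlaps Malsu1, a protein-coding gene on the plus strand, and their reads cannot be told apart where strand was not used. Igf2bp3 stood at 71.3 and 44.9 FPKM in GV, 23.8, 18.1 and 20.3 FPKM in MII with DMSO, and 28.9 and 31.3 FPKM in MII with BYBX. The groups were separate, in the same order as for Igf2bp2 but closer together. Its fall to MII with DMSO was -1.41 on the log2 scale (standard error 0.27, limma adjusted p = 2.2e-04), and the changes were positive, 0.42 and 0.89, under the other scalings. The difference between the MII groups, 0.52 (interval -0.06 to 1.10, adjusted p = 0.104), did not pass the test although the libraries did not overlap. BYBX against GV gave -0.89 (adjusted p = 0.0158). That call was lost with a minimum of 2-fold. It was also lost without the first GV or the first BYBX library, which leaves 1 in that group (-0.56 and -0.84). Under the other scalings this change was positive too, 0.078 and 0.13, and did not pass the test.

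Ratios between family members within a library were compared because they are free of the library's scaling factor. Over the 5 ratios and 3 comparisons, 15 exact two-sided permutation tests were run, whose smallest possible p is 0.1 for 2 libraries set against 3 and 0.333 for 2 set against 2. None could therefore pass the threshold of 0.05. Zar1l over Zar1 had a log2 ratio of -2.80 ± 0.39 (SD, n = 2) in GV, -8.35 ± 0.60 (SD, n = 3) with DMSO and -4.29 ± 0.37 (SD, n = 2) with BYBX, without overlap (exact permutation p = 0.1, 0.1 and 0.333, adjusted 0.214, 0.214 and 0.417). Zar1 was 5.77 to 8.43 times as high as Zar1l in GV, 222 to 508 times with DMSO and 16.3 to 23.4 times with BYBX. Igf2bp3 over Igf2bp2 went from -1.20 ± 0.07 in GV to 0.17 ± 0.14 with DMSO and -0.49 ± 0.26 with BYBX. The pair was thus near equal with DMSO, Igf2bp3 being 1.02 to 1.24 times as high as Igf2bp2 within a library. In GV and with BYBX Igf2bp3 was the lower of the pair. Ybx3 over Ybx2 was 0.63 ± 0.35, -1.01 ± 0.58 and -0.12 ± 0.09 in the same order. For these ratios and for Ybx1 over Ybx2 the 3 groups did not overlap, and BYBX lay between GV and DMSO each time. Ratios of other gene pairs were not computed, so this order is not shown to be particular to these families. Of all tested entries, 79% were separate and higher with BYBX than with DMSO, and 82.3% separate and lower than in GV. Lsm14a over Lsm14b, at 2.73 ± 0.32, 3.24 ± 0.62 and 2.77 ± 1.12, overlapped in all groups (exact permutation p = 0.4, 0.6 and 1).

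**Figure D3:**
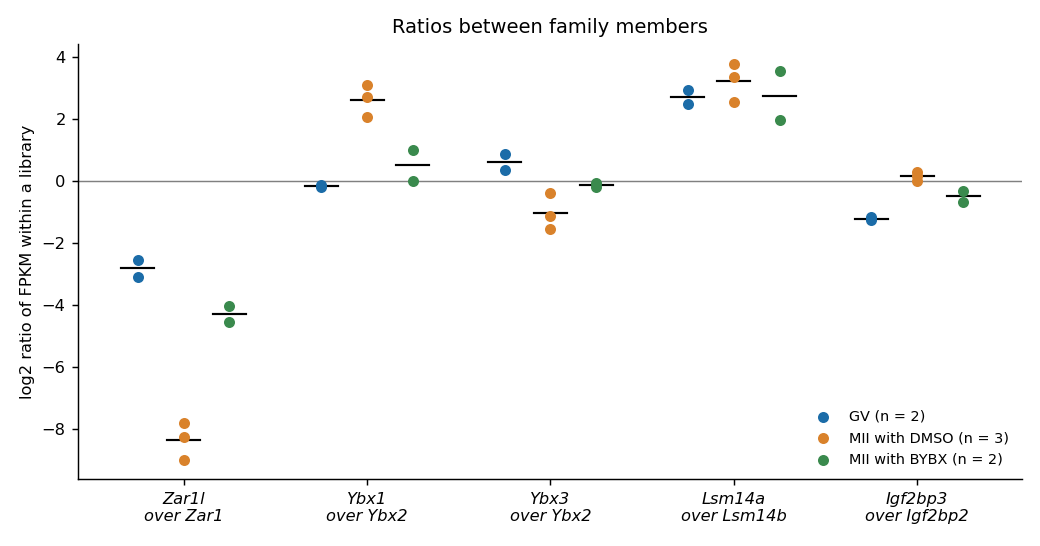
Log2 ratio of FPKM between 2 genes of a family within the same library, 1 point per library and a black line at each group mean, for GV (n = 2), MII with DMSO (n = 3) and MII with BYBX (n = 2). In 4 of the 5 ratios the libraries with BYBX lie between those of GV and of MII with DMSO, and Lsm14a over Lsm14b overlaps in all groups. Ratios of other gene pairs were not computed.

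The libraries of each group separated without overlap in MII with DMSO against GV for 7 of the 9 genes, all lower, as for 92.5% of all tested entries, with 0.315% higher. With BYBX against DMSO 6 of the 9 were separate and higher, as were 79% of entries, with 0.293% lower. With BYBX against GV 6 of the 9 were separate and lower, as were 82.3%, with 0.848% higher. Between the BYBX libraries, the first was higher than the second for 8 of the 9 genes, with Igf2bp3 as the exception, and for 60.2% of all tested entries. Their ratio was largest for Lsm14b, Ybx2 and Ybx3. Where the level in GV is set to 1 and that with DMSO to 0, the mean of Ybx2 with BYBX stood at 0.528, made of 0.858 in BYBX library 1 and 0.198 in BYBX library 2. For Ybx1 it was 0.507, with 0.960 and 0.0536, the widest gap among the 7 genes that fell. The same measure was 0.475 for Zar1 (0.591 and 0.358), 0.303 for Ybx3 (0.467 and 0.140) and 0.249 for Igf2bp3 (0.218 and 0.281). It was 0.213 for Zar1l (0.285 and 0.140) and 0.205 for Igf2bp2 (0.237 and 0.173). The measure rests on the deposited scaling. Under the other scalings the changes of Ybx1 and Igf2bp3 from GV to DMSO were positive, so there was no fall to retain. It was not computed for other entries, so it is not shown to be particular to these genes.

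Order of level within a group also changed. In GV the mean FPKM descended from Zar1 and Zar1l through Ybx3, Igf2bp2, Ybx2, Ybx1, Lsm14a and Igf2bp3 to Lsm14b. Neighbours whose libraries overlapped there were Ybx3 with Igf2bp2, Ybx2 with Ybx1, and Lsm14a with Igf2bp3. In MII with DMSO the order was Zar1, Lsm14a, Ybx1, Igf2bp3, Igf2bp2, Ybx2, Lsm14b, Ybx3 and Zar1l, and Lsm14a with Ybx1, Igf2bp3 with Igf2bp2, and Ybx2 with Lsm14b and Lsm14b with Ybx3 overlapped. With BYBX Zar1 led again, the genes from Ybx1 through Lsm14a, Ybx2, Zar1l, Ybx3 to Igf2bp2 overlapped each with the next, and Igf2bp3 and Lsm14b came last. Zar1l thus stood in place 2 in GV, 9 with DMSO and 5 with BYBX.

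Ranks among all 9202 tested entries of the same library, which are free of scaling, moved likewise. Zar1 ranked 24 to 26 in GV, 41 to 56 with DMSO and 24 to 27 with BYBX. Zar1l ranked 252 to 386, then 5279 to 6605, then 659 to 1110. Ybx3 ranked 368 to 906, 2487 to 4439 and 611 to 1535 in the same order. Other genes gained rank in MII with DMSO. Lsm14a moved from 1281 to 1648 in GV to 310 to 368 with DMSO and 639 to 647 with BYBX, and Ybx1 from 868 to 1342 to 344 to 542 and then 514 to 739. Together the 9 genes made up 0.522% to 0.560% of the total FPKM in GV, 0.360% to 0.428% with DMSO and 0.511% to 0.617% with BYBX.

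**Figure D4:**
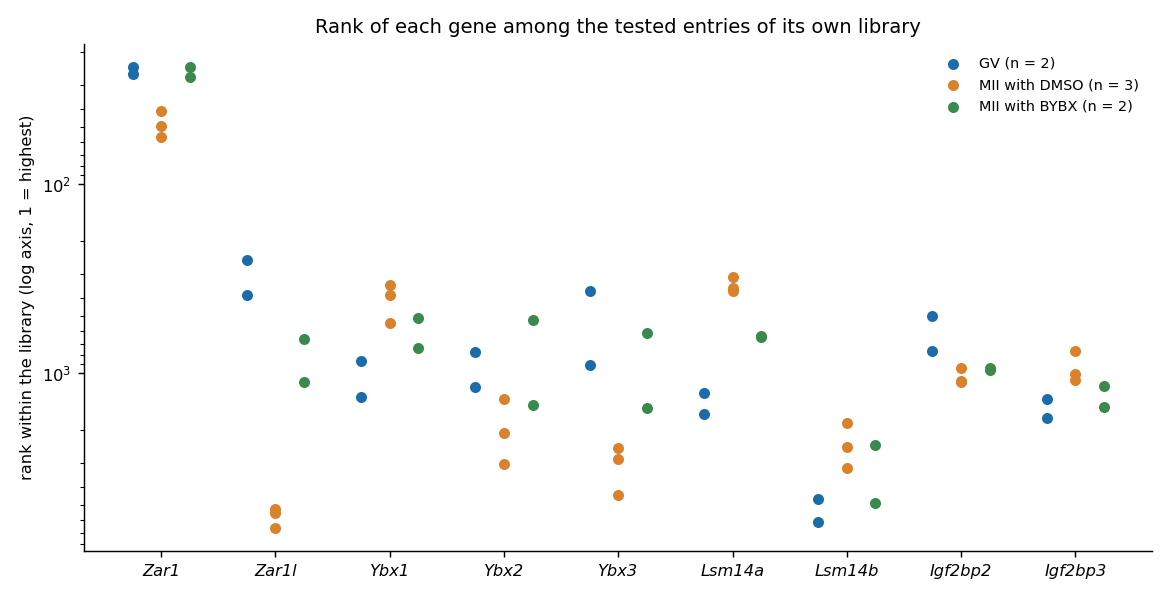
Rank of each gene by FPKM among the 9202 tested entries of its own library, on an inverted log axis with rank 1 at the top, 1 point per library of GV (n = 2), MII with DMSO (n = 3) and MII with BYBX (n = 2). Zar1l falls from ranks 252 to 386 in GV to 5279 or below with DMSO, while Lsm14a and Ybx1 stand higher with DMSO than in GV.

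The entries most like each gene were those with the smallest root mean square difference of log2(FPKM + 1) over the 7 libraries, after each entry's GV mean was subtracted. For Zar1 they were Hadhb (0.0949) and Tbc1d20 (0.103), for Zar1l Cyb5a (0.197) and Smim20 (0.215), and for Ybx2 Lsm5 (0.237) and Atp5l (0.258). Ybx3 was nearest to Rpl14 (0.327) and Malsu1 (0.362). Igf2bp2 was nearest to Usp10 (0.0424) and Wdr76 (0.0813), Igf2bp3 to Dst (0.0635) and Chmp1b (0.0677), and Lsm14a to Rragc (0.0679) and Cemip2 (0.0900). Ybx1 lay nearest to Setd1a (0.0886) and Stk40 (0.0911), and Lsm14b to Usf2 (0.166) and Dynll2 (0.178). No gene of the set was among the nearest of another. Within the set, Zar1 and Igf2bp2 were 0.528 apart, Ybx1 and Lsm14b 0.405, and Zar1l stood 1.36 from its nearest member, Ybx3. These distances describe 7 libraries in 3 groups and carry no test.

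Other genes of stored mRNA particles were chosen by role, 22 in number, of which 20 passed the filter on level and Fmr1 and Igf2bp1 did not. From GV to MII with DMSO, 17 of the 20 fell and none rose by limma, with a median log2 fold change of -1.37. With BYBX against DMSO 12 rose and none fell (median 0.81), and with BYBX against GV 10 were lower and none higher (median -0.77), so these shares too stood beside the 88.3%, 65.2% and 69.2% of all entries. By role, in MII with DMSO minus GV, 4 of 6 genes of repression and cap binding fell, 4 of 4 regulators bound to the 3′ UTR, 3 of 4 cold-shock domain proteins or partners, and 6 of 6 granule proteins. Patl2, a repressor needed for oocyte maturation, had 79.2 ± 16.4 FPKM (SD, n = 2) in GV and 2.63 ± 1.02 FPKM (SD, n = 3) with DMSO, and its log2 fold change was -4.49 (adjusted p = 8.9e-09). Fxr2, a relative of the fragile X protein, had 20.0 and 21.4 FPKM in GV, 0.166, 0.497 and 0.782 FPKM with DMSO, and 19.7 and 5.66 FPKM with BYBX. Its log2 fold changes were -3.89 from GV to DMSO (adjusted p = 2.6e-07) and 3.01 between the MII groups (adjusted p = 1.2e-05). Cpeb1, which binds the cytoplasmic polyadenylation element, went from 348 ± 78.0 FPKM in GV to 26.9 ± 3.35 FPKM with DMSO (log2 fold change -3.64, adjusted p = 1.2e-08).

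Between the MII groups the largest rises of these genes were those of Fxr2, Patl2 (log2 fold change 2.83, limma adjusted p = 3.4e-06) and Caprin2 (1.96, adjusted p = 6.2e-05), listed as a granule protein. The largest falls with BYBX against GV were those of Fxr1 (log2 fold change -2.10, adjusted p = 1.3e-04), Cpeb1 (-1.97, adjusted p = 9.1e-05) and the cap-binding protein Eif4e (-1.70, adjusted p = 1.9e-04). Eif4e lost this call at the same total FPKM (-0.73, adjusted p = 0.0774) and after centring (-0.67, adjusted p = 0.0578). Of the genes of repression and cap binding, Ddx6 fell from GV to MII with DMSO (log2 fold change -0.95, from 1.57 ± 0.388 to 0.329 ± 0.127 FPKM), and Eif4enif1, which tethers cap-binding proteins in the same particles, fell from 193 ± 98.6 to 33.9 ± 9.13 FPKM. Patl1 (-0.42, adjusted p = 0.107) and Eif4e1b (-0.51, adjusted p = 0.120) did not pass the test there.

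A further sequence feature of stored mRNA is the cytoplasmic polyadenylation element, searched as TTTTAT or TTTTAAT on the transcript strand within that part of the 3′ UTR that lies in the last 100 bases of the transcript. It was present in 3 of the 9 genes, Ybx1, Ybx2 and Lsm14a, compared with 20.2% of the matched transcripts. In GENCODE vM21 the 3′ UTR of Zar1l is 14 bases long and that of Zar1 146 bases, whereas that of Igf2bp3 is 2119 bases, so only 14 bases were searched in Zar1l. No match says only that these letters are not in this window.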

How the data were processed

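The authors trimmed reads with Trim Galore 0.6.7, aligned them to mm10 with HISAT2 2.2.1, computed FPKM with Cufflinks 2.2.1 on UCSC gene models, and scaled the values by the ERCC spike-in (100 pg per library) and then, where batches differed, by the GV libraries of the same batch. The deposited FPKM values, 1 table per library, were used as given. Neither the scaling factors nor the batch of a library is given in the sources used here, and no ERCC entry is listed. Of the 25912 entries, 4 with a missing value were left out.

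Groups were taken from the sample labels. The 9202 entries whose 3 group means averaged 1 FPKM or more were tested as log2(FPKM + 1) with limma 3.58.1 in R 4.3.3 (intensity trend, 1 model of 3 group means, Benjamini-Hochberg adjustment, threshold 0.05). Ratios within libraries were tested by exact permutation computed with numpy 2.4.6, adjusted over 15 tests. Tables, motifs and plots used pandas 2.3.3, matplotlib 3.10.9 and numpy 2.4.6 under Python 3.11.15.

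The 9 genes, their partners and the marker lists were chosen with earlier results of these data known. All 9 genes are named, and of 22 partners the 3 largest rises and 3 largest falls past the threshold in each comparison, plus the 2 entries most like each gene. Ddx6, Eif4enif1, Patl1, Eif4e1b, Figla and the named cumulus markers are given outside this rule, after their values were seen. In data simulated for MII with BYBX minus MII with DMSO, 200 of 9202 genes were changed. Of these changes, 43% of 2-fold and 91% of 4-fold ones were recovered. There were 4 false calls among the unchanged genes and 0 calls in data without change. The simulated noise was independent for each gene and held no scaling error shared within a library. In the real comparison 65.2% of entries were called higher, so these rates do not measure its power or its false calls. Gene positions and transcripts are from GENCODE vM21 on GRCm38, and 8740 of 9154 tested symbols (95.5%) matched a protein-coding transcript. Alternatives covered the pseudocount, the filter, the scaling, the fit, a minimum fold and each library. Motifs over 30 bases (2 of 5) are not printed, and another sequence result is not reported here.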

Additional observations from a re-analysis of the deposited data

How the results depend on the processing

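All libraries were compared under each alternative in turn. A pseudocount of 0.1, a filter at 5 FPKM and a fit without the intensity trend changed no call among the 27 values of the 9 genes. Scaling changed most, and by construction both scalings take out a change common to all entries. At the same total FPKM, 3 of the 9 genes were higher in MII with DMSO than in GV, as were 8 of the 20 partners, with 8 lower. With BYBX against DMSO, 1 gene and 2 partners were lower and 5 partners higher. With BYBX against GV, 1 gene was lower and 1 higher, with 2 partners lower and 1 higher. After median centring, 2 genes were lower and 4 higher in MII with DMSO than in GV, with 6 partners lower and 11 higher. With BYBX against DMSO, 2 genes were higher and 3 lower, with 3 partners higher and 9 lower. With BYBX against GV, 1 gene was lower and 1 higher, with 2 partners lower and 5 higher.

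These log2 fold changes turned sign, given first at the same total and then after centring. For MII with DMSO minus GV they were 0.42 and 0.89 for Igf2bp3, 1.71 and 2.16 for Lsm14a, 1.08 and 1.73 for Lsm14b, and 1.06 and 1.51 for Ybx1. Between the MII groups they were -0.34 and -0.76 for Igf2bp3, -0.73 and -1.13 for Lsm14a, -0.23 and -0.72 for Lsm14b, -0.44 and -0.84 for Ybx1, and -0.12 for Igf2bp2 after centring. For BYBX minus GV they were 0.078 and 0.13 for Igf2bp3, 0.85 and 1.02 for Lsm14b, 0.62 and 0.67 for Ybx1, 0.19 and 0.22 for Zar1, and 0.016 for Ybx2 after centring.

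With BYBX against GV, 3 of the 9 genes were lower with no filter on level and 3 with a minimum of 2-fold, instead of 5. Leaving out 1 library gave 3 to 6 genes lower in that comparison, 3 without the first GV or the second BYBX library, and 6 to 12 partners, 6 without the first GV library. The median log2 fold change of all tested entries for BYBX minus GV, -0.99 with all libraries, moved as well. It was -0.84 without the first GV library and -0.94 without the second BYBX library. Without the second GV or the first BYBX library it was -1.14 or -1.03. Each fit without a GV or a BYBX library leaves 1 library in that group, and the shifts were not shown to be particular to the 9 genes. Without single libraries the log2 fold change of Lsm14b was -0.26 to 1.38 between the MII groups and -0.83 to 0.82 for BYBX minus GV, and that of Lsm14a -0.12 to 0.13 for BYBX minus GV. With a pseudocount of 1, the log2 ratio of Zar1l over Zar1 changed by -4.48 from GV to DMSO (-5.54 without) and by 3.02 between the MII groups (4.06 without). The cause of these changes was not tested.

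In a further fit the replicate number was a block. Deviations of libraries with equal numbers went together between GV and MII with DMSO (correlations 0.487 and 0.282) and oppositely between the MII groups (-0.601 and -0.348) and between GV and BYBX (-0.33). The labels name no batch behind these numbers, so only the number is shared. The replicate block gave 7 genes lower, 5 higher and 5 lower in the 3 comparisons and changed no call of the 9 genes. With the BYBX numbers crossed, a pairing chosen after seeing the data, 6 genes were lower with BYBX than in GV. So were 6688 of the 9202 tested entries, with 57 higher.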
